A study of Mus musculus with 6 samples.

Results

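The subject is the set of nuclear genes for the later part of the mitochondrial respiratory chain: complex III, cytochrome c, complex IV and ATP synthase. Genes were taken by name, as those whose symbol starts with Uqcr, Cox4i, Cox5, Cox6, Cox7, Cox8 or Atp5, together with Cyc1 and Cycs. Among the 18193 genes with a probe set of exactly 1 symbol, 44 met this rule, and 87 probe sets measured them. They comprised 9 subunits of complex III, cytochrome c, 16 subunits of complex IV, 17 subunits of ATP synthase and Cox7a2l, which is not a core subunit. Of the 16 complex IV genes, 9 encode the common form of a subunit and 7 a form known from particular tissues. Cox7b had no probe set with 1 symbol and is not analysed here.

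RNA came from endothelial cells of Matrigel plugs, which are gels made of basement membrane protein. The plugs had been put into the peritoneal cavity of nude mice (Balb/c nude), which lack mature T cells. The Control group had 3 samples from plugs without added protein, and the MFAP5 group had 3 from plugs holding recombinant microfibrillar-associated protein 5, a secreted protein of elastic microfibrils. Each sample was hybridized to 1 Affymetrix Mouse Genome 430 2.0 array, on which groups of short probes (probe sets) read single transcripts. The labels give no age, dose or time, nor how endothelial cells were sorted out of the plug, and they do not say whether each sample was its own animal. The p-values therefore measure the spread between these samples, which may be technical.

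Complex III passes electrons from ubiquinol to cytochrome c, a small mobile protein between the inner and outer mitochondrial membranes, and pumps protons as it does so. Complex IV, cytochrome c oxidase, passes those electrons to oxygen, and ATP synthase makes ATP from the returning protons. The mitochondrial genome encodes further subunits of complex III, complex IV and ATP synthase. Several complex IV subunits exist as a common form and as forms of heart, skeletal muscle, brown fat, lung or testis. Endothelial cells are known to draw much of their ATP from glycolysis, while brown adipocytes and heart muscle are rich in respiratory complexes.

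All values are relative log2 signals. For each probe set, 0 is its median across the 6 arrays, so levels cannot be compared between genes, and no probe set can be called detected or absent. A gene's value is the mean of its probe sets, and a difference is the MFAP5 mean minus the Control mean. When a gene with 1 probe set has groups that do not overlap, this centring makes its lowest Control value and its highest MFAP5 value mirror images.

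In the MFAP5 samples 7 of the 44 genes fell and 0 rose (limma, adjusted p under 0.05 over all 18193 genes). The 7 were 4 subunits of complex III (Cyc1, Uqcrfs1, Uqcr11 and Uqcrc1), the tissue forms Cox7a1 and Cox8b of complex IV, and the catalytic ATP synthase subunit Atp5b. Cox8b fell by 2.81 and Cox7a1 by 1.61 on the log2 scale, and the other 5 fell by 0.51 to 0.83. This share of 15.9% stands beside the 2.79% of all genes that fell, while 0.759% of all genes rose. At an unadjusted p under 0.05, limma had 26 of the 44 genes lower and 0 higher, where 14.4% of all genes were lower. The median difference of the 44 was -0.26, compared with -0.08 over all genes, and 41 of the 44 differences were below 0, as were 65.6% of those of all genes.

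Groups that did not overlap were more frequent than calls. All 3 MFAP5 values lay below all 3 Control values in 31 of the 44 genes, or 70.5%, where 17.8% of all genes had this order. No member had the opposite order, which 1184 of all 18193 genes had. The groups overlapped in 13 members and in 13773 of all genes. The median over the 44 genes was 0.11, 0.16 and 0.17 in Control 1 to 3 and -0.17, -0.10 and -0.10 in MFAP5 1 to 3. These differences belong to bulk RNA, in which fewer cells of a type and less RNA per cell cannot be told apart. Leaving out Control 1 raised the number of the 44 genes that fell from 7 to 15, while leaving out Control 2 or Control 3 lowered it to 3 each. Over all 18193 genes the number that fell went from 508 to 1914 without Control 1, 230 without Control 2 and 205 without Control 3. Of the 44, 4 fell without MFAP5 1, 4 without MFAP5 2 and 6 without MFAP5 3 (295, 347 and 426 of all genes). None of the 44 rose in any of the 6 fits, in which few of all 18193 genes rose. Without Control 1, 2 and 3 these were 760, 16 and 14 genes, and without MFAP5 1, 2 and 3 they were 68, 122 and 117. With the unmoderated statistic of the same model no member passed the threshold (1 of all genes did), and with array weights 22 did (2879 of all genes were lower). Over the 15 alternatives that keep the moderated statistic, Cyc1, Cox7a1 and Cox8b passed in all 15, Uqcrfs1 in 13, Uqcr11 in 11, Uqcrc1 in 9 and Atp5b in 7.

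**Figure D1:**
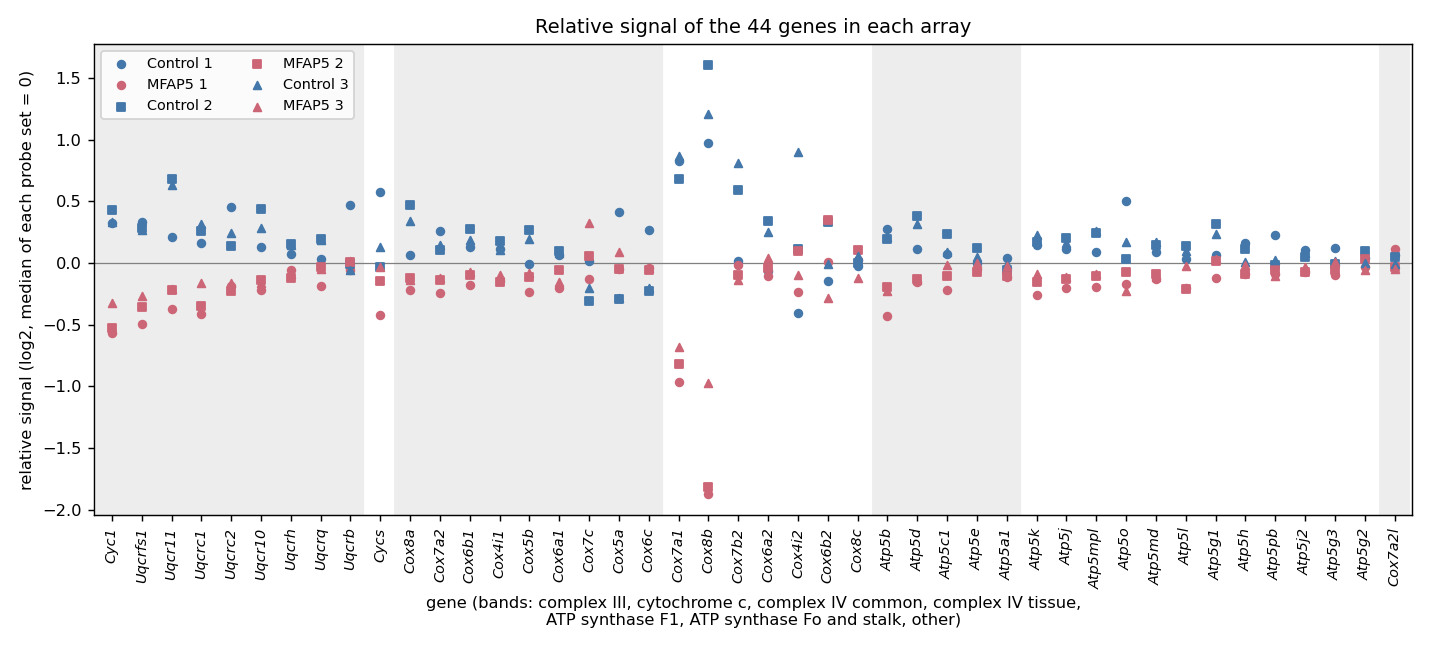
Relative signal (log2, median of each probe set = 0) of the 44 genes, 1 point per array, with circles, squares and triangles for replicates 1, 2 and 3, Control in blue and MFAP5 in red, and bands for the functional groups. The 3 MFAP5 points lie below the 3 Control points in 31 genes, by far the most widely for Cox7a1 and Cox8b, while Cox5a, Cox6c and Uqcrb have Control 1 well above the other 5 arrays.

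Complex III held 4 of the 7 genes that fell. Among its 9 genes the median difference was -0.47, all 9 differences were negative, and 8 genes had groups that did not overlap. Cyc1 encodes cytochrome c1, the heme protein that hands electrons to cytochrome c. Its relative signal was 0.32, 0.43 and 0.33 in Control and -0.57, -0.52 and -0.32 in MFAP5. All Control values were high and all MFAP5 values low, with a difference of -0.83 ± 0.11 (SE, n = 3 and 3), or 1.78-fold lower (limma adjusted p = 0.00415).

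Uqcrfs1 encodes the Rieske iron-sulfur protein, which takes the first electron from ubiquinol. Its Control values were 0.33, 0.29 and 0.27 and its MFAP5 values -0.50, -0.36 and -0.27. The groups were separate with a narrow Control range, and the difference was -0.67 ± 0.10 (SE; limma adjusted p = 0.0100). Uqcr11, one of the small accessory subunits, had Control values of 0.21, 0.68 and 0.63 and MFAP5 values of -0.37, -0.22 and -0.21. Control 1 lay nearest to the MFAP5 arrays, and the difference was -0.77 ± 0.14 (SE; limma adjusted p = 0.0220). Uqcrc1 encodes a core protein on the matrix side, related to mitochondrial processing peptidases. It had 0.16, 0.26 and 0.31 in Control and -0.41, -0.35 and -0.16 in MFAP5, again without overlap, and a difference of -0.55 ± 0.11 (SE; limma adjusted p = 0.0303).

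The other core protein, Uqcrc2, had Control values of 0.46, 0.14 and 0.24 and MFAP5 values of -0.19, -0.23 and -0.17. The small subunit Uqcr10 had 0.13, 0.43 and 0.29 against -0.22, -0.14 and -0.16. Both had separate groups and differences of -0.47 and -0.46, and neither passed the threshold (limma adjusted p of 0.0576 and 0.0611). Uqcrh, the acidic hinge protein at the cytochrome c1 contact, differed by -0.21 and Uqcrq by -0.23, both with separate groups and not past the threshold (0.251 and 0.260). Uqcrb, which lies near the quinone site, was the exception: Control 1 stood at 0.47, the other Control arrays at -0.01 and -0.06, and the MFAP5 arrays at -0.05, 0.01 and 0.02. Its groups overlapped and its difference was -0.14 (limma adjusted p = 0.611). The number of complex III genes that fell was 6 without Control 1 and 1 without Control 2 or without Control 3. It was 2 without MFAP5 1, 2 without MFAP5 2 and 4 without MFAP5 3.

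Cycs, the somatic cytochrome c that also takes part in apoptosis when released, was measured by 4 probe sets. Its relative signal was 0.58, -0.03 and 0.13 in Control and -0.42, -0.15 and -0.03 in MFAP5. The groups overlapped narrowly, since Control 2 lay just below MFAP5 3. The difference of -0.43 ± 0.17 (SE) did not pass the threshold (limma adjusted p = 0.226). Without Control 1 it was -0.25, and with the probe set of largest SD -0.13.

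None of the 9 common subunits of complex IV fell or rose over all genes (limma; 6 were lower at an unadjusted p under 0.05). The number that fell was 2 without Control 1, 0 without any other single array, 5 with array weights, 1 with the median of probe sets and 0 with the unmoderated statistic. Their median difference was -0.26, and the 3 MFAP5 values lay below the 3 Control values in 6 of them. Cox8a, the common form of the smallest subunit, had 0.07, 0.47 and 0.34 in Control and -0.22, -0.13 and -0.14 in MFAP5. Its groups were separate, and the difference of -0.46 ± 0.12 (SE) had an adjusted p of 0.0863 in limma. Cox7a2, the common form of subunit 7A, had 0.26, 0.11 and 0.15 against -0.24, -0.14 and -0.13. That difference was -0.34 ± 0.10 (SE), without overlap and not past the threshold (limma adjusted p = 0.109).

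Cox6b1, which lies between the monomers of the complex IV dimer, had 0.13, 0.27 and 0.19 in Control and -0.18, -0.10 and -0.07 in MFAP5. Cox4i1, the common form of the subunit that binds ATP as a regulator, had 0.11, 0.18 and 0.10 against -0.15, -0.15 and -0.10. Cox6a1 had 0.06, 0.10 and 0.08 against -0.20, -0.06 and -0.16. All of them, and Cox5b, had separate groups with differences of -0.31, -0.26, -0.22 and -0.29 in that order, and limma adjusted p of 0.130, 0.166, 0.245 and 0.198.

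The remaining common subunits did not share this order. Cox7c, the subunit with the highest difference of all 44 genes, had 0.01, -0.31 and -0.20 in Control and -0.13, 0.06 and 0.32 in MFAP5. Cox5a, a subunit on the matrix side, had 0.41, -0.29 and -0.29 against -0.05, -0.05 and 0.09. Both overlapped, with differences of 0.25 ± 0.14 and 0.05 ± 0.19 (SE; limma adjusted p of 0.376 and 0.895). For Cox6c Control 1 was at 0.27, the other Control arrays at -0.23 and -0.20, and the MFAP5 arrays between -0.06 and -0.04. In Cox5a and Cox6c Control 1 was thus the highest of the 6 arrays and the other Control arrays were the lowest. These gene values average probe sets that disagreed in sign. The probe sets differed by 0.53 and -0.04 for Cox7c, by -0.16, -0.01 and 0.33 for Cox5a, and by -0.20 and 0.21 for Cox6c. In the Cox6c probe set at -0.20 all MFAP5 values lay below all Control values.

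**Figure D2:**
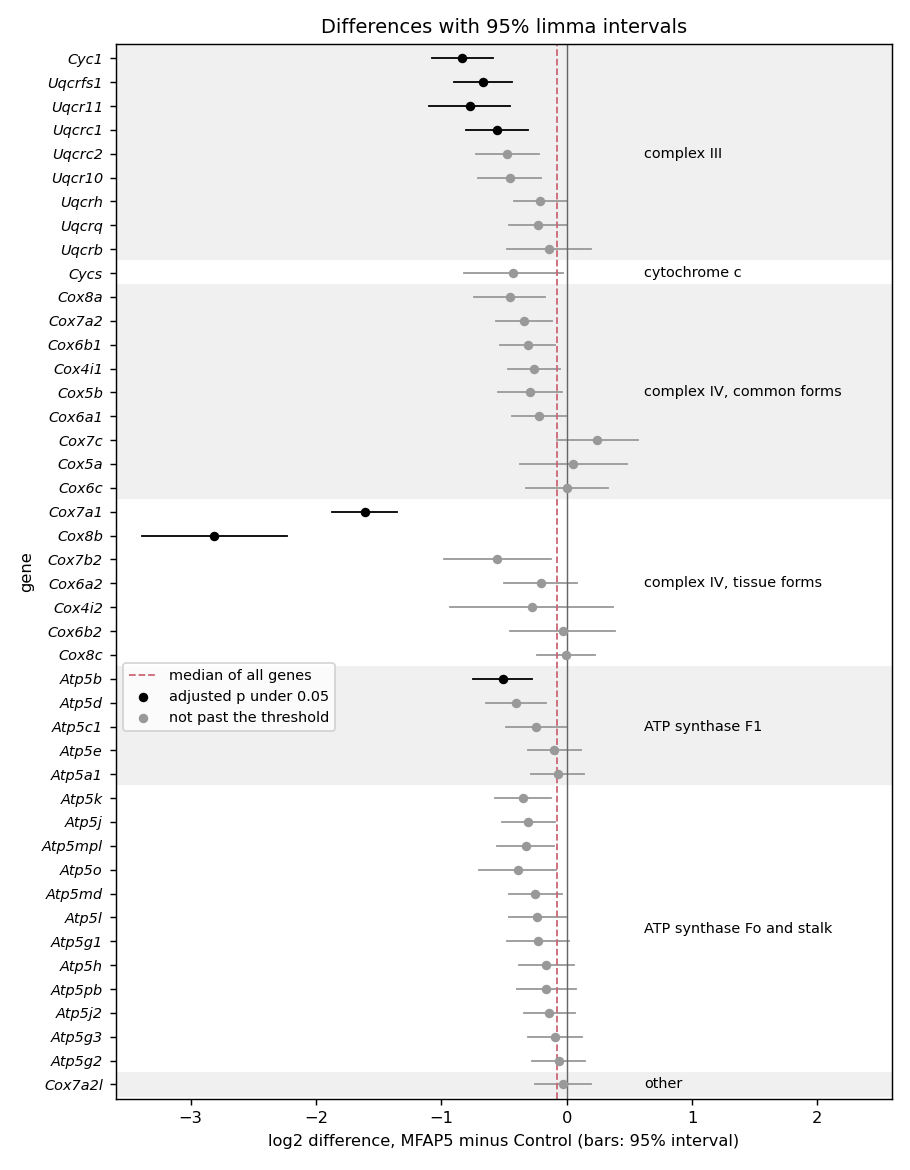
Differences between the MFAP5 and Control means (log2, x axis) of the 44 genes with 95% intervals from limma, n = 3 and 3 arrays, ordered by functional group. Black points passed an adjusted p of 0.05 and grey points did not, and the dashed line is the median of all genes at -0.08. Cox8b and Cox7a1 stand apart at -2.81 and -1.61, and 41 of the 44 points lie below 0.

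The tissue forms of complex IV held the widest range of differences. Of the 7 genes, 2 fell, the median was -0.28, and 3 had groups without overlap. Cox7a1 is the form of subunit 7A known from heart, skeletal muscle and brown fat. Its Control values were 0.83, 0.68 and 0.87 and its MFAP5 values -0.97, -0.82 and -0.68. All Control values were far above all MFAP5 values, and the difference was -1.61 ± 0.11 (SE, 95% interval -1.87 to -1.35), a 3.06-fold lower signal (limma adjusted p = 4.07e-04).

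Cox8b is the form of subunit 8 known from the same tissues, and it is often used as a marker of brown and beige fat in mice. Its Control values were 0.97, 1.60 and 1.21 and its MFAP5 values -1.87, -1.82 and -0.97. MFAP5 3 lay nearest to Control, although still far below it. The difference was -2.81 ± 0.25 (SE, 95% interval -3.39 to -2.24), a 7.03-fold lower signal (limma adjusted p = 9.46e-04).

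The 5 other tissue forms did not pass the threshold. Cox7b2, a testis form of subunit 7B, had 0.02, 0.59 and 0.81 in Control and -0.02, -0.10 and -0.14 in MFAP5. Its groups were separate only by the distance from Control 1 to MFAP5 1, and the difference was -0.55 ± 0.19 (SE; limma adjusted p = 0.158). Without Control 1 Cox7b2 passed the threshold at -0.78 (limma adjusted p = 0.00945), as it did with array weights at -0.79 (0.0075). Cox6a2, the heart and muscle form of subunit 6A, had -0.07, 0.34 and 0.25 against -0.11, -0.04 and 0.04, a difference of -0.21 with overlap (limma adjusted p = 0.395). Unlike Cox7a1 and Cox8b, this muscle form thus had a Control array among the MFAP5 arrays.

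Cox4i2, a form known from lung and induced by low oxygen, had the widest Control spread of the set, with -0.41, 0.12 and 0.90. Its MFAP5 values of -0.24, 0.10 and -0.10 lay inside that spread (difference -0.28 ± 0.28 SE; limma adjusted p = 0.607). The difference was -0.59 without Control 1 and 0.07 without Control 3, and neither passed the threshold. Cox6b2, a testis form, had -0.15, 0.33 and -0.01 against 0.01, 0.35 and -0.28. Cox8c, also known from testis, had -0.02, -0.001 and 0.06 against 0.03, 0.10 and -0.12. The groups of both overlapped, with differences of -0.03 and -0.01 (limma adjusted p of 0.938 and 0.973).

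The 6 tissue forms with a measured common counterpart (Cox7b2 has none) were set against it within the same array, which removes whatever shifts both alike. Including the 3 genes of ATP synthase subunit c, 9 pairs were compared with an exact two-sided permutation test, whose smallest possible p for 3 against 3 arrays is 0.1. Cox7a1 minus Cox7a2 was 0.57, 0.57 and 0.72 in Control and -0.72, -0.69 and -0.55 in MFAP5. Cox8b minus Cox8a was 0.90, 1.13 and 0.87 in Control and -1.65, -1.69 and -0.83 in MFAP5. In both pairs the tissue form was the higher in relative signal in every Control array and the lower in every MFAP5 array. Because each probe set is centred at 0, paralogs with separate groups and unequal falls tend to give this change of sign. It does not show which form was more abundant. The changes of -1.27 and -2.36 (log2) reached that smallest exact p of 0.1, which is 0.3 after Benjamini-Hochberg adjustment over the 9 pairs, so this test cannot pass 0.05.

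The testis form Cox8c went the other way against Cox8a, with -0.09, -0.47 and -0.28 in Control and 0.24, 0.23 and 0.02 in MFAP5. The change was 0.45 (exact p = 0.1, adjusted 0.3), made up of a difference of -0.01 in Cox8c and of -0.46 in Cox8a. For Cox4i2 minus Cox4i1 the change was -0.02, for Cox6a2 minus Cox6a1 0.01 and for Cox6b2 minus Cox6b1 0.28, with overlapping groups in each (exact p of 0.9, 0.9 and 0.3).

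**Figure D3:**
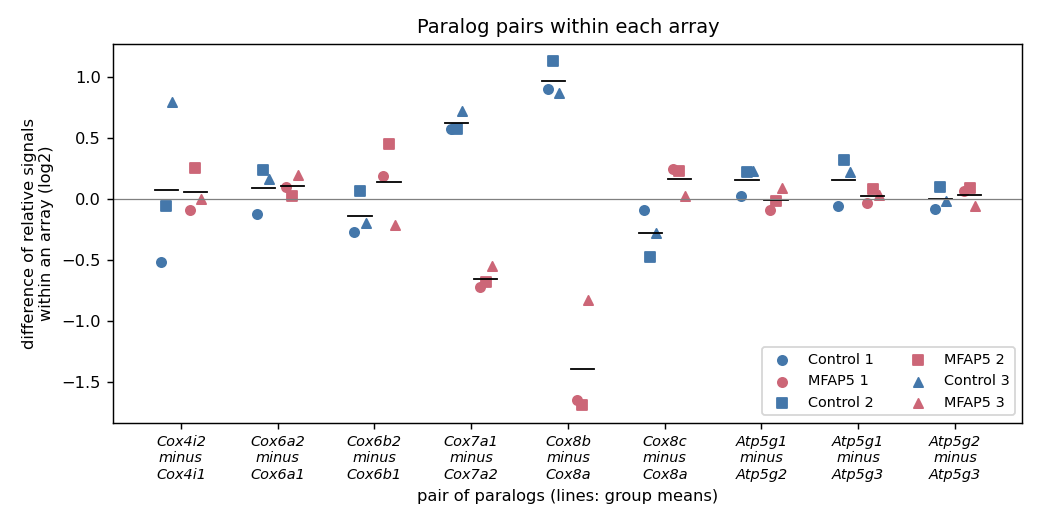
Difference of relative signal between paralogs within each array (log2, y axis) for the 9 pairs, 1 point per array and lines for the group means. Cox7a1 minus Cox7a2 and Cox8b minus Cox8a are above 0.5 in all Control arrays and below -0.5 in all MFAP5 arrays, and the groups overlap in 6 of the 9 pairs.

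Promoter sequences are shown for these pairs, because the paralogs changed unequally, and for Cycs and Uqcr11, because they hold the motif known for respiratory genes. They are RefSeq sequences of build GRCm38.p6, running from 140 bases before the annotated start to its first 10 bases. Capitals mark a match to the nuclear respiratory factor 1 core GCGCANGCG or the ETS motif CCGGAAG on either strand. Lower case alone means that neither motif, nor the estrogen-related receptor motif TCAAGGTCA or the YY1 motif AAGATGGCG, was found in those letters.
Cox7a1 (tissue form, chr7:30184031-30184180, plus strand): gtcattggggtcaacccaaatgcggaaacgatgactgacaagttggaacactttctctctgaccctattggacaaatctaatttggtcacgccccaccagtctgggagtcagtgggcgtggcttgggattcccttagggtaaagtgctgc
Cox7a2 (common form, chr9:79759844-79759993, minus strand): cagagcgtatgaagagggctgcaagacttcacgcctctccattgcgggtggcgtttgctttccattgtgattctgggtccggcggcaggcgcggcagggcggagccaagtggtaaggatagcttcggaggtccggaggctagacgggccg
Cox8b (tissue form, chr7:140900437-140900586, minus strand): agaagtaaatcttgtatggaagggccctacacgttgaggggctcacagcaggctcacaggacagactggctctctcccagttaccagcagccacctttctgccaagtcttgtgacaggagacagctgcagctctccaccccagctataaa
Cox8a (common form, chr19:7217607-7217756, minus strand): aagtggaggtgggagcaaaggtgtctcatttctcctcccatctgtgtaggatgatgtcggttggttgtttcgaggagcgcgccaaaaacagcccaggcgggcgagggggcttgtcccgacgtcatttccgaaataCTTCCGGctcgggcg
Cycs (cytochrome c, chr6:50566560-50566709, minus strand): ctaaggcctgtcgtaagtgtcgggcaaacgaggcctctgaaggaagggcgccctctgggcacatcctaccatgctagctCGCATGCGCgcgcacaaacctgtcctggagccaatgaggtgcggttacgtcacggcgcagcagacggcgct
Uqcr11 (complex III, chr10:80406812-80406961, minus strand): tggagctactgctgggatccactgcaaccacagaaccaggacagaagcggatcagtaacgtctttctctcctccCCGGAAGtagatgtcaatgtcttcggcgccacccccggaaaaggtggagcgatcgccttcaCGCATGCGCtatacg
In the printed stretches the tissue forms Cox7a1 and Cox8b hold none of the 4 motifs, and of their common counterparts Cox8a holds an ETS match and Cox7a2 none. Cycs holds the core of nuclear respiratory factor 1, and Uqcr11 holds both that core and an ETS match. A match is a description of letters and not a shown binding site.

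Windows from 250 bases before to 50 bases after the start were found for 33 of the 44 genes, 36 windows in all. At least 1 of the 4 motifs occurred in 18 of the 36 windows (50%), compared with 15.2% of all 32851 windows of this length. The nuclear respiratory factor 1 core was in 30.6% of them (6.25% of all windows), the ETS motif in 30.6% (8.86%), the receptor motif in 2.78% (0.423%) and the YY1 motif in 5.56% (1.40%). By outcome, 2 of the 6 windows of genes that fell held a motif, compared with 16 of the 30 windows of the other genes. No window was found for Atp5a1, Atp5mpl, Cox4i1, Cox4i2, Cox6a2, Cox6c, Cox8c, Cyc1, Uqcrb, Uqcrc2 and Uqcrq.

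ATP synthase consists of the catalytic F1 head and the membrane part Fo, joined by a central and a peripheral stalk. Of its 17 genes 1 fell, all 17 differences were negative with a median of -0.23, and 14 had groups without overlap. At an unadjusted p under 0.05 limma had 9 of the 17 lower. Atp5b encodes the beta subunit, where ATP is formed. It had 0.28, 0.20 and 0.21 in Control and -0.43, -0.20 and -0.23 in MFAP5. The groups were separate, with a difference of -0.51 ± 0.10 (SE), or 1.43-fold lower (limma adjusted p = 0.0352). Leaving out Control 1 gave 4 ATP synthase genes that fell, and leaving out any of the other 5 arrays gave 0.

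Of the rest of the F1 head, the delta subunit Atp5d had 0.11, 0.38 and 0.31 against -0.15, -0.13 and -0.14. The gamma subunit Atp5c1, which turns inside the head, had 0.08, 0.24 and 0.09 against -0.22, -0.11 and -0.02. Their differences of -0.41 and -0.25, without overlap, did not pass the threshold (limma adjusted p of 0.0774 and 0.241). For Atp5e, the epsilon subunit, the values were 0.003, 0.12 and 0.05 against -0.05, -0.07 and -0.003, and the difference was -0.10 (limma adjusted p = 0.582). The alpha subunit Atp5a1, partner of the beta subunit in the catalytic ring, overlapped between groups with a difference of -0.07 (limma adjusted p = 0.700). Its 3 probe sets disagreed, at -0.44, -0.18 and 0.41.

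Among the 12 genes of the membrane part and stalks none passed the threshold in limma, and 6 were lower at an unadjusted p under 0.05. Atp5k, the e subunit that takes part in dimer formation, had 0.14, 0.17 and 0.23 in Control and -0.26, -0.15 and -0.09 in MFAP5. The peripheral stalk gene Atp5j had 0.11, 0.20 and 0.16 against -0.20, -0.13 and -0.11. The small membrane subunit Atp5mpl had 0.09, 0.24 and 0.26 against -0.20, -0.11 and -0.09. All were separate between groups, with differences of -0.35, -0.31 and -0.33 (limma adjusted p of 0.0945, 0.120 and 0.124).

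Atp5o encodes the subunit that ties the stalk to the head. It had 0.50, 0.03 and 0.17 in Control and -0.17, -0.08 and -0.23 in MFAP5, with Control 1 highest and a difference of -0.39 ± 0.13 (SE; limma adjusted p = 0.162). Atp5g1, Atp5g2 and Atp5g3 encode the same mature subunit c of the rotating ring with different import sequences. Atp5g1 had 0.06, 0.31 and 0.23 against -0.13, 0.02 and 0.03. Atp5g2 had 0.04, 0.09 and 0.003 against -0.03, 0.03 and -0.05, and Atp5g3 had 0.12, -0.01 and 0.02 against -0.09, -0.06 and 0.01.

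Of these, Atp5g1 alone had separate groups, with a difference of -0.23, beside -0.06 for Atp5g2 and -0.09 for Atp5g3 (limma adjusted p of 0.289, 0.729 and 0.604). Within arrays the change of Atp5g1 was -0.16 against Atp5g2 (exact p = 0.2) and -0.13 against Atp5g3 (exact p = 0.4), with overlapping groups. With the most variable probe set of each gene these changes were -0.26 and -0.49, both at the smallest exact p of 0.1, so the test does not settle whether the paralogs differ. Of the remaining membrane and stalk genes, Atp5md was at -0.25, Atp5l at -0.23, Atp5h and Atp5pb at -0.16 and Atp5j2 at -0.14, all 5 with separate groups and none past the threshold. Cox7a2l, a relative of subunit 7A that takes part in joining complexes III and IV into supercomplexes, had 0.07, 0.05 and -0.01 in Control and 0.11, -0.04 and -0.05 in MFAP5. Its groups overlapped and its difference was -0.03 (limma adjusted p = 0.896).

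Single probe sets bear on the calls, because all 7 genes that fell were among the 17 measured by 1 probe set. None of the 27 genes with several probe sets passed the threshold in limma, and 13 of them were lower at an unadjusted p under 0.05. The median difference was -0.33 over the 17 and -0.22 over the 27. Of all genes, 3.35% with 1 probe set and 2.22% with several fell. Tested singly over all 45037 probe sets, 10 of the 87 were lower (11.5%, beside 1.72% of all probe sets) and 0 higher, and 75 had a negative difference.

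Those 10 included 1 probe set each of Uqcrc2 at -0.67, Uqcr10 at -0.61, Cycs at -0.75 and Cox8a at -0.65 (limma adjusted p of 0.0188, 0.0474, 0.0353 and 0.0475 over all probe sets). The probe sets of these genes that were not called ranged widely, with -0.27 for Uqcrc2, -0.50 and -0.25 for Uqcr10, -0.57 to -0.13 for Cycs, and -0.69 and -0.03 for Cox8a. The probe set of Atp5b missed the threshold in this larger family (limma adjusted p = 0.057). Among the 27 genes the probe sets shared a negative sign in 16 and disagreed in sign in 11. Control 1 was more than 0.3 above both other Control arrays in 12 of the 87 probe sets, among them 2 of 3 for Cox5a, 2 of 2 for Uqcrb and 2 of 4 for Cycs.

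**Figure D4:**
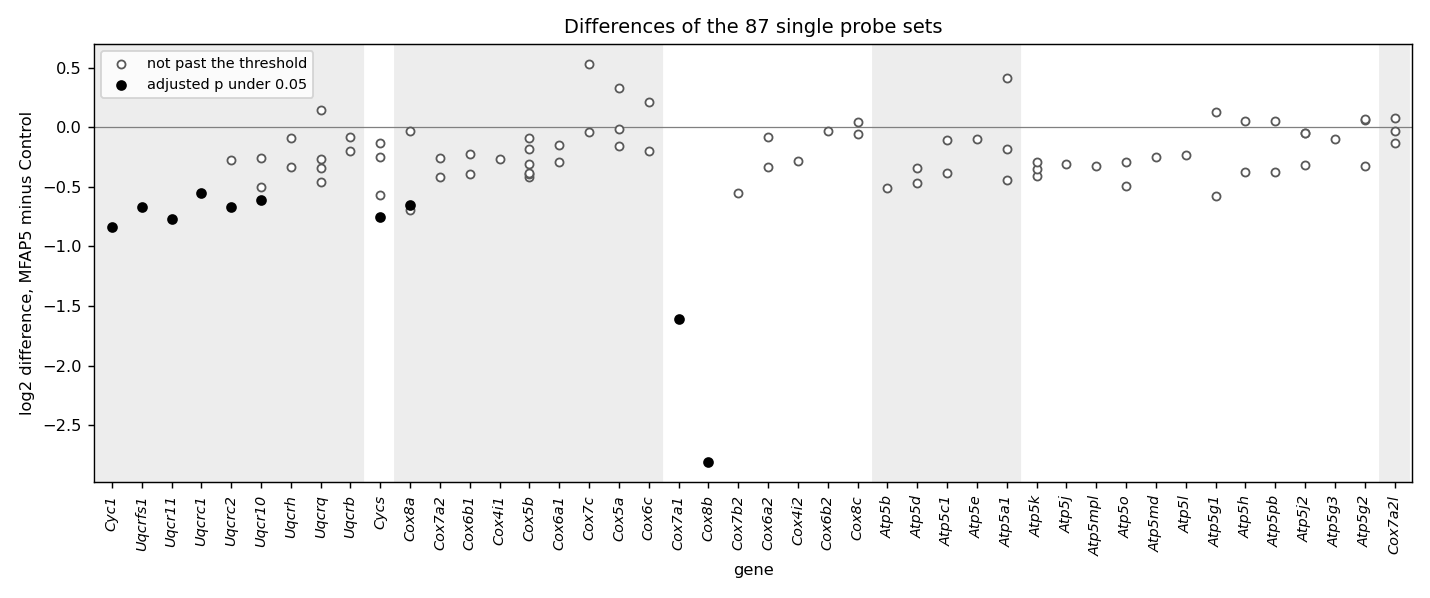
Difference between the MFAP5 and Control means (log2, y axis) for each of the 87 probe sets of the 44 genes, with filled circles for those past an adjusted p of 0.05 over all probe sets. Probe sets of 1 gene stand above each other. The 10 filled circles all lie below -0.5, and genes such as Atp5a1, Atp5g1 and Cox7c have probe sets on both sides of 0.

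Genes that build or feed these complexes were counted from lists by function. Of 6 assembly factors of complex III 1 fell, with a list median of -0.30: Uqcc1, needed for the making of cytochrome b, at -0.49 ± 0.10 (SE; limma adjusted p = 0.0391). The related Uqcc2 and the chaperone Bcs1l, which inserts the Rieske protein, were at -0.35 and -0.30 (0.158 and 0.150). Of 5 measured genes for ATP synthase assembly and inhibition 1 fell, with a median of -0.25: Atpaf2, a chaperone of the alpha subunit, at -0.83 ± 0.15 (SE; limma adjusted p = 0.0238). Its partner Atpaf1, a chaperone of the beta subunit, was at -0.25, and Fmc1 at -0.58 (0.186 and 0.0684).

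For complex IV, none of 20 measured assembly factors passed the threshold in limma, 7 were lower at an unadjusted p under 0.05, and the median was -0.14. Surf1, lost in a form of Leigh syndrome, was at -0.41, Cox19 at -0.45 and the copper chaperone Sco2 at -0.41 (limma adjusted p of 0.0706, 0.0994 and 0.105). Complex II, which feeds electrons into the chain from succinate, had 1 of 4 genes lower and a median of -0.26. That gene was the iron-sulfur subunit Sdhb at -0.51 ± 0.10 (SE; limma adjusted p = 0.0251), beside the flavoprotein Sdha at -0.34 (0.118).

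The carriers that exchange ATP, ADP and phosphate across the inner membrane had no gene past the threshold in limma among 4 and a median of 0.06. The phosphate carrier Slc25a3 was higher at an unadjusted p under 0.05, at 0.32 with all MFAP5 arrays above all Control arrays (limma adjusted p = 0.252). Of 16 regulators of mitochondrial biogenesis 1 fell, with a median of -0.03. Ppargc1a, the coactivator PGC-1 alpha, had 0.56, 0.44 and 0.70 in Control and -0.39, -0.37 and -0.29 in MFAP5, a difference of -0.91 ± 0.11 (SE; limma adjusted p = 0.00247). Its relative Ppargc1b was at -0.65 and the mitochondrial RNA polymerase Polrmt at -0.33 (0.157 and 0.162). The nuclear respiratory factor gene Nrf1 was at 0.04 and Esrra, the estrogen-related receptor alpha, at 0.19, neither past the threshold. No measured gene had a symbol of the mitochondrial genome, so its subunits are not analysed here.

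Markers of other cell types differed from list to list. Of 12 white and general adipocyte markers 10 were measured, all 10 had MFAP5 below Control, and 9 fell in limma. Their median in each array was 1.05 to 1.35 in Control and -2.88, -2.16 and -0.96 in MFAP5. MFAP5 3 was thus the highest MFAP5 array for these markers. It was also the highest for Cox8b, Cox7a1, Cyc1, Uqcrfs1, Uqcr11 and Uqcrc1, but not for Atp5b. For Uqcr11 MFAP5 2 and 3 were close, at -0.22 and -0.21, and the median over the 44 genes was -0.10 in both arrays. Whether these orders are linked was not tested. Of 9 brown and beige adipocyte markers 3 fell, with a list median of -0.35. Ucp1, the uncoupling protein of brown fat, had 0.35, 1.16 and 1.04 against -0.41, -0.55 and -0.35 (difference -1.29, limma adjusted p = 0.0110). Cidea fell by 1.53 and Kcnk3 by 0.67 (0.00113 and 0.0247). Dio2, the thyroid hormone deiodinase, went the other way at 0.52 with all MFAP5 arrays above all Control arrays, and Tmem26 was at 0.06 (limma adjusted p of 0.21 and 0.813).

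Skeletal muscle was read from 14 markers. None passed the threshold in limma, 12 had negative differences, and 4 were lower at an unadjusted p under 0.05. Their array medians were -0.01, 0.26 and 0.10 in Control and -0.07, -0.02 and -0.07 in MFAP5, with a median difference of -0.18. Of 8 cardiac markers none passed the threshold, none was under 0.05 unadjusted, and the median was -0.01. Of 12 endothelial markers none passed it in limma, 4 were lower at an unadjusted p under 0.05, and the median was -0.18. The adhesion molecule Pecam1 was at -0.71 and the angiopoietin receptor Tek at -0.75 (limma adjusted p of 0.132 and 0.0592). Since values are centred, the labelled cell type could not be checked by the level of these markers.

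Among other cells, 4 of 8 measured neutrophil markers fell, with a median of -0.61, as did 1 of 8 pericyte and smooth muscle markers (Kcnj8), with a median of -0.14. Of 8 fibroblast markers Pi16 fell and the other 7 had positive differences, with a list median of 0.23. Dcn was at 0.36 with all MFAP5 arrays above all Control arrays, and Lum at 0.27 (limma adjusted p of 0.0853 and 0.235). No marker passed the threshold in limma among 10 of macrophages, 7 of mesothelium, 7 of T, NK and B cells and 4 of erythroid cells. Their medians ran from -0.12 to -0.02, with 1, 1, 0 and 1 at an unadjusted p under 0.05. The macrophage and mesothelial genes were lower, and the erythroid gene Alas2 was higher at 1.15. The part of any of these cells in the differences of the respiratory genes was not tested.

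The arrays also differed in ways that bear on these values. The spike-in controls averaged -0.32 in Control 1 and 0.64 and 0.65 in Control 2 and 3, while the MFAP5 arrays lay between -0.04 and -0.0065. Over all probe sets, whose values are centred, Control 1 correlated at -0.028 and 0.02 with the other Control arrays, which correlated with each other at 0.69. The relative 3' minus 5' signal of actin, which bears on RNA integrity, was -0.05 to -0.0048 in Control and 0.04 to 0.14 in MFAP5, without overlap. Because each probe set is centred, this measure compares arrays and does not give the 3' to 5' ratio of any array. For Gapdh the same measure overlapped, with -0.16, 0.03 and -0.03 in Control and 0.09, -0.04 and 0.03 in MFAP5. The part of RNA integrity in the differences was not tested.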

How the data were processed

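Total RNA (PureLink kit) was amplified from 100 ng into biotin-labelled cRNA and hybridized to 6 arrays, per the labels' protocols. MAS5 is named in the submitters' processing notes, with settings and later steps not given in the sources used here. Values were deposited as log2 signals centred by probe set: row medians were 0 within 5e-07. The base was read from the width of the widest probe set, 8.24 units, and a natural log was not excluded; printed log2 differences and folds would then be too small. Higher values were taken as more signal. Centring leaves no signal level, so no filter on dim probe sets was possible. Precision is limited by having 3 arrays per group.

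Of 45101 probe sets 64 were controls. Of the other 45037, 34945 had 1 symbol in the platform annotation, 932 had several and 9160 were not listed. Gene values were compared with limma 3.58.1 in R 4.3.3 (two-sided, lmFit with eBayes and no trend, Benjamini-Hochberg over 18193 genes, threshold 0.05). On simulated data of 18193 genes, 10% of genes changed by 0.5 (log2), 74% by 1 and 100% by 2 or 3 were recovered, 50 genes each, with 8 false of 150 calls. The simulated noise was normal and independent between genes, with each gene's own spread, and all changes were upward. Noise shared between genes was not simulated, so these rates may differ on the real arrays.

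The members and lists were chosen with earlier results of these data known. Values are given for up to 4 members of each functional group with the smallest p, for all paralogs and for the 2 highest differences, and for up to 3 genes of each other list. Nrf1, Esrra, Dio2, Tmem26 and the further members were named after their values were seen. Alternatives were other scalings, a trend, array weights, a block, each sample left out, other probe set rules, an unmoderated statistic, a spike-in covariate, current symbols and a minimum difference of 0.5. Promoters are from RefSeq (GRCm38.p6).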

Additional observations from a re-analysis of the deposited data

How the results depend on the processing

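Array weights raised the number of members that fell from 7 to 22, while all genes that fell went from 508 to 2879. The unmoderated statistic lowered the number of members to 0 and that of all genes to 1. At an unadjusted p under 0.05, both the unmoderated fit and the limma fit reported had 26 members. Of all genes, in either direction, 2815 and 3584 were under it in these fits, in that order. The cause of the drop at the adjusted threshold was not tested. Leaving out 1 sample gave 3 to 15 members, and 205 to 1914 of all genes. The number of members was 8 with quantile normalization, a variance trend, the median of probe sets, and without probe sets that can match several transcripts. It was 7 with median centring, current symbols or a minimum difference of 0.5, and 6 with the probe set of largest SD or the spike-in covariate. Of all genes 482 to 600 fell in the fits with another scaling, probe set rule or trend, and 316 with the spike-in covariate. No member rose in any of these, where all genes that rose went from 0 (unmoderated statistic) to 1125 (array weights). The median difference of the members moved from -0.26 to -0.22 with quantile normalization, while that of all genes moved from -0.08 to -0.04. With the most variable probe set the members' median was -0.33, beside -0.10 over all genes. The causes of these moves were not tested. With 1 sample left out the members' median lay between -0.29 and -0.23. With the replicate number as a replicate block 6 members fell and Atp5b was lost (limma adjusted p = 0.0585), while all genes that fell went from 508 to 590. The deviations of same-numbered samples correlated at 0.18, 0.055 and 0.072, so the numbers were not taken as pairs. With differences of about the same size, Uqcrc1 and Atp5b were lost with the spike-in covariate (-0.51 and -0.53, limma adjusted p of 0.0843 and 0.0687) and with the probe set of largest SD (-0.55 and -0.51, 0.0621 and 0.0729). Cox8a was called with the median of probe sets (-0.64, limma adjusted p = 0.0402) and Atp5o without probe sets that can match several transcripts (-0.49, 0.0318).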
